A study of Mus musculus with 8 samples.

Results

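The MYC, MAX and MXD network was described in mouse iTreg, regulatory T cells induced in culture, through the transcripts of 10 genes. The members were taken by gene symbol: Myc and Mycn, which encode the activating partners; Max, the common partner; Mxd1, Mxd3, Mxd4 and Mxi1, the MXD repressors; Mnt and Mga, larger MAX partners; and Mlx, which pairs with several of the same repressors. All 10 were found among the 23361 gene symbols of the deposited expression table, and 9 of them reached a mean of at least 1 FPKM (fragments mapped to the gene, divided by its transcript length and by all mapped fragments of the library) and were tested in a fit of 10467 genes. Mycn stayed under that level.

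The cells of both groups came from WT Foxp3-RFP reporter mice, in which a red fluorescent protein marks Foxp3 expression. According to the methods of the study, the mice were male, 7 to 8 weeks old and of the B6 strain, and the naive T cells came from the spleen. Naive CD4+ T cells (CD44low CD62Lhigh) were cultured with anti-CD3/CD28 beads at 1 bead for 5 cells, IL-2 at 50 U/ml and TGF-β at 2 ng/ml according to the labels, while the methods of the study give IL-2 at 10 ng/ml. The labels give 3 days of culture in 1 field and day 5 in another. Viable CD4+ Foxp3-RFP+ cells were then sorted on surface Nrp-1, a co-receptor for semaphorins and VEGF, into Nrp-1+ and Nrp-1- iTreg, with 4 libraries of each, so both groups had passed the Foxp3 gate and had received the same treatment. The comparison asks how the subsets differ in gene expression at the time of the sort.

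MYC proteins bind DNA as dimers with MAX, mostly at the E-box CACGTG, and activate genes of ribosome production, metabolism and cell growth. MXD proteins and MNT compete for MAX, bind the same E-box and recruit the SIN3-HDAC corepressor, which removes acetyl groups from histones. In T cells, Myc is switched on by antigen receptor and IL-2 signals and drives the metabolic change that accompanies activation, whereas MXD genes are classically linked to the end of proliferation, with Mxd3 as the member known to be expressed during S phase.

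Because the network acts on E-boxes, the RefSeq promoter windows (assembly GRCm38.p6, from 250 bases before to 50 bases after a start site) were searched for CACGTG, which reads the same on both strands. Windows were at hand for 9 members, 11 windows in all. Myc had no window and was not searched. CACGTG was found in 4 of the 11 windows, those of Max, Mlx, Mnt and Mxd4, and in 7.15% of all 32851 windows and 10.6% of the 9785 windows of tested genes. The 4 stretches are shown because they place the recognition sequence of the network near the start of its own genes. They are written 5′ to 3′ on the strand of the gene with the E-box in capitals.
Max: tgagcccggtCACGTGttagggggcc
Mlx: tgggttggatCACGTGactgagcctc
Mnt: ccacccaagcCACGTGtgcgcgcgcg
Mxd4: gctgggccacCACGTGctgttgctaa
The stretch of Max lay at chr12:76962236-76962261 on the minus strand, with the E-box starting 3 bases before the RefSeq start site and running across it. The GENCODE M21 gene of Max starts further downstream, so the E-box lies upstream of its span. That of Mlx lay at chr11:101087240-101087265 on the plus strand, 40 bases before the start. That of Mnt lay at chr11:74830791-74830816 on the plus strand, 123 bases before the start. That of Mxd4 lay at chr5:34187914-34187939 on the minus strand, 219 bases before the start. A match describes these letters only.

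The window of Mxd3 held no CACGTG and 8 copies of the GC box GGGCGG, counted on both strands and with overlaps. A GC box was found in 7 members, in 35.7% of all windows and in 64.3% of the windows of tested genes, but 8 or more copies stood in only 86 windows of all (0.262%) and in 56 of those of tested genes (0.572%). Of the 8 copies, 6 formed 3 overlapping pairs, shown here because Mxd3 is the member whose transcript differed most between the groups. The pairs are in capitals, on the minus strand, which is the strand of the gene, and they start 109, 85 and 49 bases before the RefSeq start site. The GENCODE M21 gene starts further upstream, so the pairs at 85 and 49 lie inside its span.
Mxd3, pair at 109: gctgggcaGGGCGGGGCGGacggggtt
Mxd3, pair at 85: gttcccatGGGCGGGGCGGggaggggc
Mxd3, pair at 49: gcgaccggGGGCGGGGCGGgccctgtg
They lay at chr13:55329822-55329848, chr13:55329798-55329824 and chr13:55329762-55329788 of GRCm38.p6.

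The sort was visible in the values. The level of Nrp1 was 21.5 ± 0.709 FPKM in the Nrp-1+ libraries and 4.95 ± 0.262 FPKM in the others (SD, n = 4 in each group), that of Foxp3 116 ± 3.72 and 109 ± 1.2 FPKM, and that of Cd4 315 ± 4.77 and 325 ± 11.7 FPKM. Read counts were not used here. The relative depth, read from low genes and set to 1 in replicate 1 of Nrp-1+ iTreg, lay between 0.810 and 1.23. Short RNA genes (microRNAs, small nucleolar RNAs and similar) took between 1.77% and 43.9% of the summed FPKM of a library. The summed FPKM of the other genes varied less than that share and lay between 672591 and 691993 in the Nrp-1+ libraries and between 682842 and 729151 in the Nrp-1- libraries. As an alternative, short RNA genes were left out and each library was rescaled to the same sum of the other genes, and results that changed are given as such. Summed markers of other cells were low beside T and Treg markers (Cd3e, Cd4, Foxp3, Il2ra and Ctla4, 1044 to 1075 FPKM in a library): CD8 markers summed to 7.10 to 8.78 FPKM in Nrp-1+ and 9.33 to 11.3 FPKM in Nrp-1- iTreg, nearly all of it Cd8b1, with Cd8a at no more than 0.111 FPKM. The 4 B cell markers summed to 5.21 to 5.91 and 4.01 to 5.80 FPKM, with Ms4a1 listed at 0, and the 5 myeloid markers to 6.46 to 7.22 and 5.41 to 6.23 FPKM, mostly Itgam. The hemoglobin genes summed to 5.49 to 7.54 and 2.02 to 3.26 FPKM, nearly all of it Hba-a1, and NK and dendritic cell markers stayed at or under 0.142 FPKM. The part of these cells in the results was not tested.

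Mxd3 was the 1 member that was called higher in Nrp-1+ iTreg. Its transcript, which encodes the MXD repressor tied to S phase, stood at 81.4, 86.8, 80.9 and 85.2 FPKM in the 4 Nrp-1+ libraries and at 42.9, 47.8, 46.6 and 50.9 FPKM in the 4 Nrp-1- libraries. Every Nrp-1+ library was above every Nrp-1- library, and the groups were far apart beside the spread within them. The mean was 83.6 ± 2.89 FPKM (SD, n = 4) against 47.0 ± 3.30 FPKM, a ratio of 1.78. On the log2(FPKM + 1) scale the difference was 0.82 with a standard error of 0.05 and a 95% confidence interval from 0.70 to 0.93 (limma, adjusted p = 6.52e-06). Among all tested genes, 2189 were called higher in Nrp-1+ iTreg (20.9%) and 2093 lower (20.0%), a call being an adjusted p under 0.05, and 162 genes (1.55%) were called higher by at least as much as Mxd3. It ranked 220 of 10467 by the size of the increase. In bulk RNA a larger share of cells with the transcript and more transcript per cell cannot be told apart.

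Mxd3 lies at chr13:55325168-55329823 on the minus strand (GENCODE M21, GRCm38). Of its 2369 exonic bases, 105 (4.43%) overlap exons of Prelid1 on the opposite strand, and whether strand was used in counting is not given in the sources used here for these values. Prelid1, which encodes a mitochondrial lipid transfer protein, went the other way: 446 ± 10.6 FPKM in Nrp-1+ and 479 ± 12.1 FPKM in Nrp-1- iTreg.

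**Figure D1:**
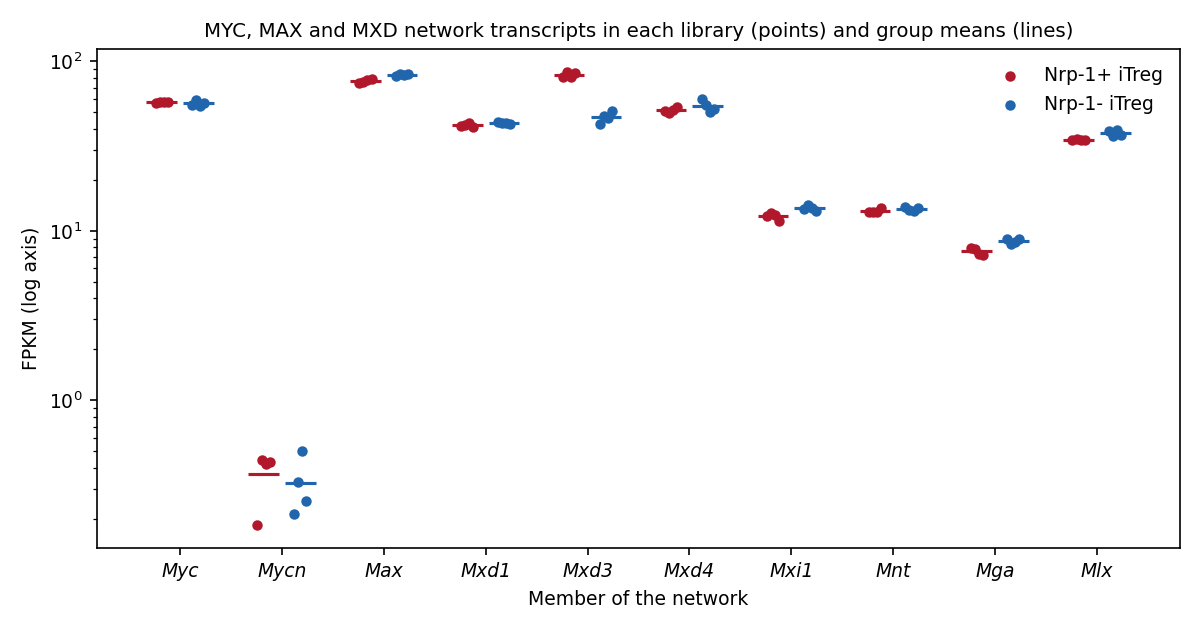
Levels of the network members in each library. The vertical axis gives FPKM on a log scale, each point is 1 library (red for Nrp-1+ and blue for Nrp-1- iTreg) and each line is the mean of 4. The points of Mxd3 lie between 80.9 and 86.8 FPKM in Nrp-1+ iTreg and between 42.9 and 50.9 FPKM in Nrp-1- iTreg, whereas the points of Myc overlap.

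The other 3 MXD genes were not higher in Nrp-1+ iTreg. Mxi1, whose product recruits SIN3 as the other MXD proteins do, stood at 12.3, 12.8, 12.3 and 11.4 FPKM in the Nrp-1+ libraries and at 13.5, 14.3, 13.6 and 13.1 FPKM in the Nrp-1- libraries. The groups did not overlap, and Mxi1 was lower by 0.15 on the log2 scale (difference -0.15, standard error 0.04, interval -0.24 to -0.06, limma adjusted p = 0.0192). The difference was small, 10.4% of the Nrp-1- mean, and it was not called after rescaling without short RNA genes (-0.09, limma adjusted p = 0.183).

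Mxd1, a MXD gene linked to differentiation, stood at 41.6, 42.0, 43.1 and 41.1 FPKM in Nrp-1+ and at 43.7, 43.5, 43.4 and 43.0 FPKM in Nrp-1- iTreg. The highest Nrp-1+ library, replicate 3, was just above the lowest Nrp-1- library, so the groups overlapped, and the difference of -0.05 was not called (limma, adjusted p = 0.0886; exact two-sided permutation p = 0.0571, with 0.0286 as the smallest p that 4 against 4 libraries allow). Without that replicate the difference was -0.06 and passed the threshold (limma, adjusted p = 0.0494), and after rescaling without short RNA genes it was 0.01 (limma, adjusted p = 0.828). The rescaling raises all genes together, and against the median gene of all tested genes Mxd1 stood at -0.03 under either scaling.

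Mxd4 stood at 51.0, 49.9, 51.6 and 54.2 FPKM in Nrp-1+ and at 59.7, 55.6, 50.3 and 52.7 FPKM in Nrp-1- iTreg. The Nrp-1- libraries spread more widely than the Nrp-1+ libraries and the groups overlapped. The difference of -0.08 had an interval from -0.20 to 0.04 (limma, adjusted p = 0.280), which leaves room for a small change in either direction.

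**Figure D2:**
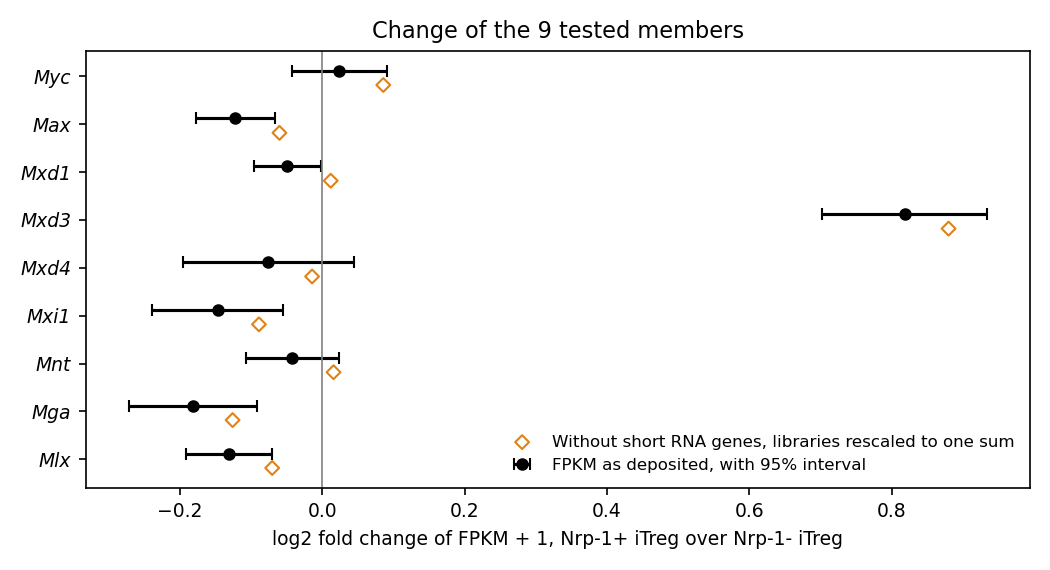
Difference of each member between the groups. The axis gives the log2(FPKM + 1) difference, Nrp-1+ minus Nrp-1- iTreg, for the 9 tested members; filled points are the FPKM as deposited with their 95% confidence intervals from limma, and open diamonds are the values after rescaling without short RNA genes. Mxd3 lies at 0.82 as deposited and 0.88 after rescaling, and Max, Mlx, Mxi1 and Mga lie below 0 in both, called as deposited and not after rescaling.

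Myc was not called. The gene, the main activating partner in activated T cells, had 56.7, 57.8, 57.8 and 57.3 FPKM in Nrp-1+ and 55.3, 59.5, 54.3 and 56.8 FPKM in Nrp-1- iTreg. The highest and the lowest library both belonged to Nrp-1- iTreg, so the Nrp-1+ range lay inside the Nrp-1- range. The means were 57.4 ± 0.514 and 56.5 ± 2.27 FPKM, a log2 difference of 0.02 with an interval from -0.04 to 0.09 (limma, adjusted p = 0.537; exact two-sided permutation p = 0.429). After rescaling without short RNA genes the difference was 0.09 (limma, adjusted p = 0.0827), with 0.04 against the median gene under either scaling. Myc lies at chr15:61985391-61990374 on the plus strand. Its non-coding neighbour Pvt1, at chr15:62037986-62378096 on the same strand, stood at 3.01 ± 0.186 and 3.11 ± 0.248 FPKM, a difference of -0.03 that was not called (limma, adjusted p = 0.680).

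Mycn, the paralog best known from embryonic and neural cells, was near the limit of what these libraries measure. It stood at 0.183, 0.446, 0.418 and 0.430 FPKM in Nrp-1+ and at 0.214, 0.330, 0.503 and 0.254 FPKM in Nrp-1- iTreg. After scaling for relative depth the 8 values stood in the ratios of small whole numbers (within 0.193%), the smallest of which sum to 77 fragments in Nrp-1+ and 62 in Nrp-1- iTreg. A fit over all genes with any value above 0 gave a difference of 0.05 with an interval from -0.15 to 0.25 (limma, adjusted p = 0.741), so a difference was not detectable at this depth. Myc and Mycn together were thus almost all Myc, at 57.8 ± 0.628 FPKM in Nrp-1+ and 56.8 ± 2.23 FPKM in Nrp-1- iTreg.

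Max, the common partner with which MYC, MXD, MNT and MGA proteins bind DNA, was slightly lower in Nrp-1+ iTreg. It stood at 74.2, 75.5, 77.9 and 79.2 FPKM there and at 82.6, 83.9, 83.6 and 84.0 FPKM in Nrp-1- iTreg. The 4 Nrp-1- libraries lay close together and above all Nrp-1+ libraries. The difference was -0.12 with a standard error of 0.02 and an interval from -0.18 to -0.07 (limma, adjusted p = 0.00446), or -8.17% of the Nrp-1- mean. It was not called after rescaling without short RNA genes (-0.06, limma adjusted p = 0.201).

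Mlx, whose product pairs with MXD1, MXD4 and MNT as well as with the glucose-sensing MondoA and ChREBP, was lower in Nrp-1+ iTreg as deposited. It stood at 34.2, 34.7, 34.3 and 34.5 FPKM in Nrp-1+ and at 38.7, 36.6, 39.2 and 36.9 FPKM in Nrp-1- iTreg. The Nrp-1+ libraries lay within a very narrow range below all Nrp-1- libraries, with a difference of -0.13 (standard error 0.03, interval -0.19 to -0.07, limma adjusted p = 0.00501). After rescaling without short RNA genes it was -0.07 and not called (limma, adjusted p = 0.204). Of the 1999 exonic bases of Mlx, 385 (19.3%) overlap exons of Psmc3ip on the opposite strand. Psmc3ip, a recombination factor gene, stood at 11.4 FPKM in Nrp-1+ and 5.76 FPKM in Nrp-1- iTreg, the opposite direction.

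Mga encodes the largest MAX partner, a scaffold of the variant Polycomb complex PRC1.6. It stood at 7.89, 7.83, 7.32 and 7.20 FPKM in Nrp-1+ and at 8.96, 8.35, 8.56 and 8.95 FPKM in Nrp-1- iTreg. Again every Nrp-1+ library was below every Nrp-1- library. The difference of -0.18 (standard error 0.04, interval -0.27 to -0.09) was the largest decrease among the members (limma, adjusted p = 0.00695), and after rescaling without short RNA genes it was -0.13 and not called (limma, adjusted p = 0.0776). Mnt, the broadly expressed repressor, stood at 12.9, 12.8, 12.9 and 13.7 FPKM in Nrp-1+ and at 13.8, 13.4, 13.2 and 13.7 FPKM in Nrp-1- iTreg. Its groups overlapped and its difference of -0.04 (interval -0.11 to 0.02) was not called (limma, adjusted p = 0.269), and after rescaling it was 0.02 (limma, adjusted p = 0.821), with -0.03 against the median gene under either scaling.

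In all, 5 of the 9 tested members were called, 1 higher and 4 lower, where 40.9% of all tested genes were called. The groups did not overlap in 5 of the 9, where this held for 39.5% of all tested genes. By direction, 4 of the 9 were called lower beside 20.0% of all tested genes and 1 of the 9 higher beside 20.9%, and the 4 lower calls are those that rescaling without short RNA genes ended. Against the median gene of all tested genes these 4 hardly moved. Max stood at -0.11 as deposited and -0.10 after rescaling, and Mlx at -0.12 and -0.11. Mxi1 stood at -0.13 under either scaling and Mga at -0.17. The median difference was -0.08 over the 9 members and -0.02 over all tested genes. Rescaling without short RNA genes raised the median of all genes by 0.06 and turned the split of calls from 51.1% to 73.5% higher, and it left 0 members called lower and Mxd3 called higher (0.88, limma adjusted p = 3.56e-11). When the short RNA genes were left out but the FPKM kept as deposited, the same 5 members were called.

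The members held different places in the 2 groups when their levels were ordered on the FPKM scale, which divides by transcript length. In Nrp-1+ iTreg the order was Mxd3 (83.6 FPKM), Max (76.7), Myc (57.4), Mxd4 (51.7), Mxd1 (41.9), Mlx (34.4), Mnt (13.1), Mxi1 (12.2), Mga (7.56) and Mycn (0.370), and no neighbours in that order had overlapping ranges. In Nrp-1- iTreg Max led at 83.5 FPKM. It was followed by Myc (56.5), Mxd4 (54.6), Mxd3 (47.0) and Mxd1 (43.4), whose ranges each overlapped with that of the next, then by Mlx (37.8), by Mxi1 (13.6) and Mnt (13.5) with overlapping ranges, and by Mga (8.70) and Mycn (0.325). Mxd3 thus stood in the first place in Nrp-1+ iTreg and in the fourth in Nrp-1- iTreg.

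The make-up of the MXD transcripts followed Mxd3. The summed FPKM of Mxd1, Mxd3, Mxd4 and Mxi1 was 189 FPKM in Nrp-1+ iTreg, with libraries from 186 to 192 FPKM, and 159 FPKM in Nrp-1- iTreg, with libraries from 154 to 161 FPKM. Mxd3 supplied 44.1% of that sum in Nrp-1+ iTreg (43.0% to 45.3%) and 29.7% in Nrp-1- iTreg (26.8% to 31.9%). Mxd4 supplied 27.3% and 34.4%, Mxd1 22.1% and 27.4%, and Mxi1 6.45% and 8.58%. The share of Mxd3 was the largest of the 4 in Nrp-1+ iTreg, and that of Mxd4 in Nrp-1- iTreg. These shares come from the same values as the single genes and carry no test.

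**Figure D3:**
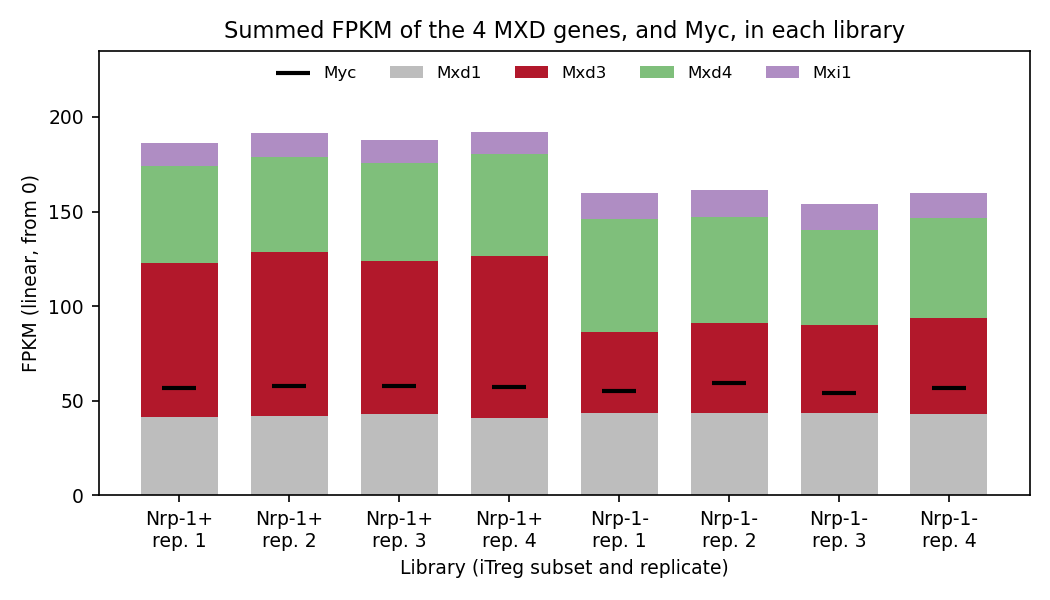
Make-up of the MXD transcripts in each library. The bars stack the FPKM of Mxd1, Mxd3, Mxd4 and Mxi1 for the 4 Nrp-1+ and the 4 Nrp-1- iTreg libraries, on an axis that starts at 0, and the black dash marks Myc. The sum lies between 186 and 192 FPKM in Nrp-1+ iTreg and between 154 and 161 FPKM in Nrp-1- iTreg, and the Mxd3 part is the one that differs most.

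The ratio of activating to repressing transcripts, Myc and Mycn over the 4 MXD genes and Mnt, was 0.286 ± 0.00375 (SD, n = 4) in Nrp-1+ iTreg, with libraries from 0.281 to 0.290, and 0.330 ± 0.00947 in Nrp-1- iTreg, with libraries from 0.320 to 0.343. All Nrp-1+ libraries were lower. With Mxd3 left out of the repressors the order turned, at 0.486 in Nrp-1+ iTreg (0.480 to 0.496) and 0.455 in Nrp-1- iTreg (0.425 to 0.472). Mxd3 stood at 1.09 times the level of Max in Nrp-1+ and at 0.563 times in Nrp-1- iTreg, and at 1.45 and 0.833 times the level of Myc. The ratio of Max to the sum of its partners Myc, Mycn, the MXD genes, Mnt and Mga was 0.286 and 0.352. Transcript ratios are not protein ratios, and no protein was measured here.

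The partner and target genes of the network were taken from 8 lists, 103 genes of which 98 were tested, beside a list of 10 proliferation genes described at the end. Of the 98, 30 were called higher and 25 lower, with a median difference of -0.01, where 20.9% and 20.0% of all tested genes were called.

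Of the 3 tested genes of the MLX branch, 0 were called higher and 2 lower, and the median of -0.32 is the value of Txnip. Txnip, which encodes a brake on glucose uptake and is the classical target of MondoA and MLX, stood at 426, 418, 439 and 436 FPKM in Nrp-1+ and at 532, 539, 538 and 532 FPKM in Nrp-1- iTreg. Every Nrp-1+ library was lower, by -0.32 on the log2 scale (limma, adjusted p = 1.30e-05), and the call held in all 18 alternative settings. Mlxip, which encodes MondoA, stood at 10.2 ± 0.346 and 11.2 ± 0.457 FPKM, a difference of -0.13 (limma, adjusted p = 0.0250) that was called in only 12 of the 18 settings. After rescaling without short RNA genes the difference of Mlxip was -0.07 and not called (limma, adjusted p = 0.343). Without replicate 1 or replicate 2 of Nrp-1+ iTreg, or without replicate 4 of Nrp-1- iTreg, 1 gene of the list was called lower. Arrdc4, an arrestin-family target of the same factors, stood at 2.67 ± 0.401 and 3.78 ± 0.95 FPKM and was not called (-0.36, limma adjusted p = 0.0940), but was called lower in 3 of its 17 settings, namely without replicate 1 of Nrp-1- iTreg and in both fits without short RNA genes (after rescaling -0.31, limma adjusted p = 0.0427), and Mlxipl, which encodes ChREBP, stayed at or under 0.0736 FPKM.

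Of the other E-box factors, 5 of 8 were tested, 0 were called higher and 2 lower, with a median of 0.01. Usf1 (34.6 ± 0.506 against 38.4 ± 1.22 FPKM, -0.15, limma adjusted p = 0.00276) and Usf2 (54.1 ± 1.76 against 59.0 ± 1.87 FPKM, -0.12, limma adjusted p = 0.0162) encode ubiquitous factors that bind the same CACGTG. Neither was called after rescaling without short RNA genes, which left 0 called lower and 1 higher. Mycl, listed under its older symbol Mycl1, stood at no more than 0.253 FPKM in any library.

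Among 16 MYC cofactors, 3 were called higher and 3 lower, with a median of -0.06. Actl6a (38.1 ± 1.18 against 32.2 ± 1.59 FPKM, 0.24, limma adjusted p = 0.00170) and Smarcb1 (55.8 ± 1.61 against 48.9 ± 2.57 FPKM, 0.19, limma adjusted p = 0.00608), both subunits of chromatin remodelling complexes, were higher in Nrp-1+ iTreg. Zbtb17, whose product MIZ1 pairs with MYC at repressed genes, was lower (10.3 ± 0.575 against 12.1 ± 0.512 FPKM, -0.21, limma adjusted p = 0.00685). Ep300, a histone acetyltransferase gene, was lower too (22.7 ± 0.582 against 25.0 ± 0.714 FPKM, -0.13, limma adjusted p = 0.00649). After rescaling without short RNA genes 3 cofactors were called higher and 1 lower, and Ep300 was not called.

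The SIN3-HDAC corepressor, which MXD and MNT proteins recruit, had 5 of 11 genes called higher and 3 lower, with a median of 0.10. The histone-binding subunit genes led: Rbbp7 stood at 121 ± 2.95 against 89.5 ± 2.50 FPKM (0.43, limma adjusted p = 7.78e-06) and Rbbp4 at 78.8 ± 2.06 against 64.2 ± 1.44 FPKM (0.29, limma adjusted p = 5.77e-05). RBBP4 also serves chromatin assembly behind the replication fork. Sin3b, a scaffold gene, was lower (105 ± 2.43 against 115 ± 2.19 FPKM, -0.13, limma adjusted p = 0.00367), and so was Arid4b (13.7 ± 0.732 against 15.5 ± 1.10 FPKM, -0.17, limma adjusted p = 0.0386), which was called in 11 of the 18 settings. The number called higher was 3 without replicate 1 or 2 of Nrp-1+ iTreg or without replicate 4 of Nrp-1- iTreg and 2 after quantile normalization (with 3 lower). After rescaling without short RNA genes 6 were called higher and 0 lower.

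Of the 10 partners of MGA in PRC1.6, 5 were called higher, 0 were called lower and 5 were not called, with a median of 0.10. Tfdp1, which encodes the DNA-binding partner of E2F proteins, stood at 67.3 ± 0.984 against 42.2 ± 2.02 FPKM (0.66, limma adjusted p = 2.73e-06), and E2f6 at 12.1 ± 0.747 against 9.62 ± 0.707 FPKM (0.30, limma adjusted p = 0.00438). Pcgf6, which defines the complex, stood at 4.70 ± 0.523 and 4.99 ± 0.305 FPKM and was not called. Without replicate 4 of Nrp-1+ iTreg, 1 gene was called lower.

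The genes for MYC protein turnover were split, 5 of 14 higher and 4 lower, with a median of 0.06. Aurka, a mitotic kinase whose protein can shield MYCN from degradation, stood at 48.9 ± 1.39 against 25.5 ± 1.96 FPKM (0.92, limma adjusted p = 4.40e-06), and Skp2, a ubiquitin ligase subunit gene of the cell cycle, at 4.32 ± 0.247 against 2.50 ± 0.367 FPKM (0.61, limma adjusted p = 0.000496). The deubiquitinase genes Usp36 (5.98 ± 0.240 against 7.24 ± 0.155 FPKM, -0.24, limma adjusted p = 0.000917) and Usp28 (14.1 ± 0.188 against 16.4 ± 0.365 FPKM, -0.20, limma adjusted p = 0.000351) were lower, whereas Usp37, a deubiquitinase gene of the same list named after its values were seen, was higher (5.84 ± 0.415 against 4.4 ± 0.314 FPKM, 0.34, limma adjusted p = 0.00245). After rescaling without short RNA genes 7 genes were called higher and 2 lower.

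Of the 33 MYC-activated targets, 11 were called higher and 8 lower, with a median of -0.00. Rcc1, the exchange factor of RAN, stood at 35.7 ± 2.15 against 21.3 ± 0.564 FPKM (0.72, limma adjusted p = 5.78e-06), and Tfrc, the transferrin receptor, at 68.1 ± 2.87 against 42.7 ± 1.67 FPKM (0.66, limma adjusted p = 4.75e-06). Ppan, a ribosome assembly gene, was lower (7.58 ± 0.639 against 9.52 ± 0.591 FPKM, -0.30, limma adjusted p = 0.00593), and so was Polr1b, a subunit of RNA polymerase I (2.57 ± 0.163 against 3.36 ± 0.126 FPKM, -0.29, limma adjusted p = 0.00218). Other targets, chosen after their values were seen, show how the list split. Odc1, the entry enzyme of polyamine synthesis (46.2 against 35.1 FPKM), Slc7a5, a large amino acid transporter (24.8 against 16.5 FPKM), and Cdk4 (145 against 124 FPKM) were higher in Nrp-1+ iTreg. The glucose transporter gene Slc2a1 (65.5 against 76.9 FPKM) and the glycolytic genes Hk2 (12.7 against 15.0 FPKM) and Ldha (906 against 983 FPKM) were lower, while the glycolytic gene Eno1 was not called. Nucleolar genes stood on both sides: Npm1 (839 against 961 FPKM), Ncl (116 against 126 FPKM) and Fbl (78.7 against 86.3 FPKM) were lower, and Nop56 (46.6 against 42.3 FPKM) and Nop58 (47.6 against 43.4 FPKM) were higher. Ncl, Fbl and Ldha were not called after rescaling without short RNA genes. Ncl, Npm1, Ldha, Nop56 and Nop58 were not called after quantile normalization, and Nop56 was called in 11 of the 18 settings. Quantile normalization gave 7 called higher and 6 lower, and rescaling without short RNA genes gave 14 higher and 5 lower.

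Of 6 tested MYC-repressed targets, 1 was called higher and 3 lower, with a median of 0.01. Cdkn1a, which encodes the cell cycle inhibitor p21, stood at 61.9 ± 1.91 against 34.7 ± 2.46 FPKM (0.82, limma adjusted p = 6.82e-06). Cdkn1b, which encodes the inhibitor p27, was lower at 89.9 ± 3.55 against 102 ± 2.06 FPKM (-0.19, limma adjusted p = 0.00204), and so was the stress response gene Ndrg1 at 76.8 ± 2.73 against 86.3 ± 2.01 FPKM (-0.17, limma adjusted p = 0.00297). The other lower call was Ndrg2, named after its values were seen, at 24.2 ± 0.386 against 25.7 ± 0.868 FPKM (-0.08, limma adjusted p = 0.0477). It was called in only 3 of the 18 settings, and not after rescaling without short RNA genes (-0.02, limma adjusted p = 0.733). With any 1 library left out Ndrg2 was not called and 2 genes of the list were called lower. Without replicate 2 of Nrp-1- iTreg, 2 genes were called higher.

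**Figure D4:**
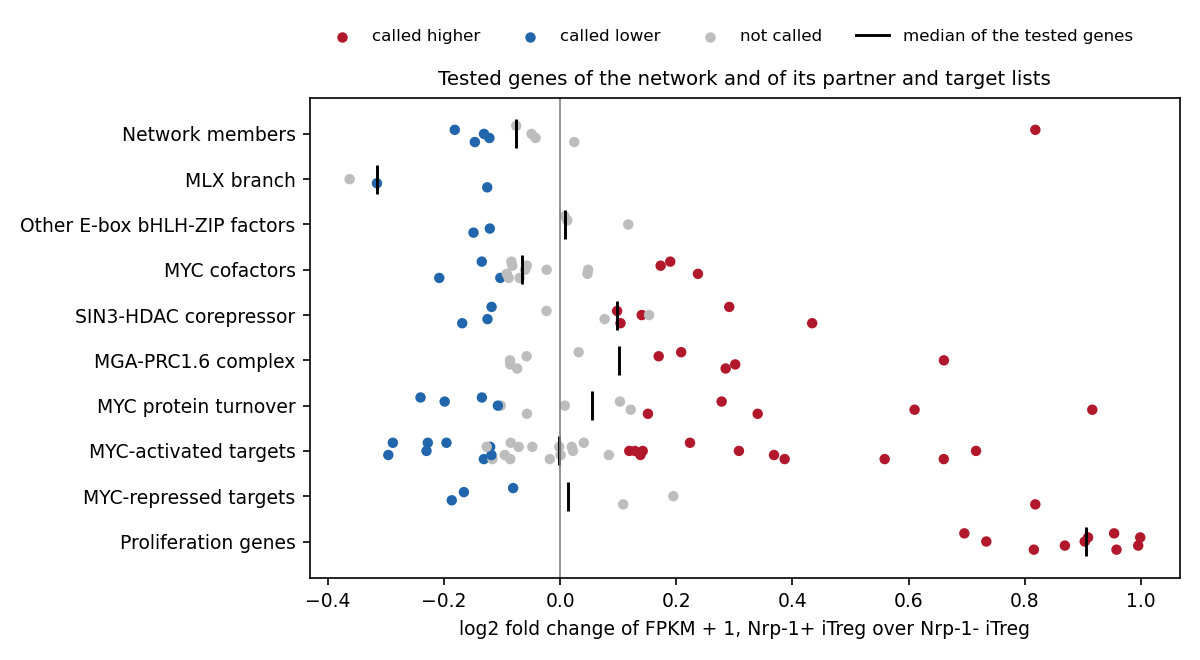
Differences of the partner and target genes by list. The axis gives the log2(FPKM + 1) difference, Nrp-1+ minus Nrp-1- iTreg; each point is 1 tested gene (red called higher, blue called lower, grey not called), the black line is the median of the list, and the network members are in the top row. All 10 proliferation genes lie between 0.70 and 1.00, whereas the MYC-activated targets lie on both sides of 0 with a median of -0.00.

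All 10 proliferation genes were called higher in Nrp-1+ iTreg, with a median of 0.91. Mcm5, a subunit of the replicative helicase, stood at 83.0 ± 1.77 against 41.0 ± 0.830 FPKM (1.00, limma adjusted p = 1.59e-07), and Top2a, the topoisomerase of dividing cells, at 346 ± 9.71 against 173 ± 3.08 FPKM (1.00, limma adjusted p = 1.84e-07). The summed FPKM of the list lay between 1433 and 1479 in Nrp-1+ iTreg and between 797 and 811 in Nrp-1- iTreg. The part of the difference in proliferation genes in the difference of Mxd3 was not tested.

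The genes whose levels followed a member most closely were ranked by Pearson r over the 8 libraries, which fall into 2 groups that stand apart for Mxd3 and Mga, so r there mostly reflects the groups. For Mxd3 they were Aurka (r = 0.998), Haus5, a subunit of the spindle complex augmin (r = 0.995), and Ube2c, a ubiquitin-conjugating enzyme of mitotic exit (r = 0.995). For Mga they were Erap1, a peptidase of antigen processing (r = 0.983), Klhdc5 (r = 0.979) and Zfp874a (r = 0.978). For Myc, whose groups overlapped, they were Arhgef11 (r = 0.927), the histone gene Hist1h4f (r = 0.921) and Tsc22d1 (r = 0.917). None of these was called, and Hist1h4f stood near the filter, at 1.45 FPKM in Nrp-1+ and 1.75 FPKM in Nrp-1- iTreg. All values of r here are the highest out of 10467 tested genes over only 8 libraries and carry no test.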

How the data were processed

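RNA sequencing of 4 Nrp-1+ and 4 Nrp-1- iTreg libraries was used, without the nTreg libraries of the study. FPKM were computed by the authors with Cufflinks after read handling in the CLC Genomics Workbench, and the deposited table holds 1 FPKM for each symbol in each library. The submitters' processing notes name GRCm38 and mm10; the methods name a directional polyA kit and the labels another kit. FPKM are not counts, so absolute depth is unknown, and 7072 symbols were listed at 0 in all libraries.

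The 10467 genes whose mean reached 1 FPKM were fitted on log2(FPKM + 1), which understates changes of low genes, with limma 3.58.1 in R 4.3.3 (lmFit, then eBayes with trend), without covariates, and p-values were adjusted by Benjamini-Hochberg over all of them. Mycn, under the filter, came from the same fit over all genes with any value above 0. Exact two-sided permutation tests compared mean FPKM. Python 3.11.15 (numpy 2.4.6, pandas 2.3.3, scipy 1.17.1, matplotlib 3.10.9) made the other tables and plots. The fit was tested on simulated data with independent noise for each gene. These data held no difference in scaling between libraries, so that test does not bear on the choice of scaling. No pair of libraries had identical values in more than 1.54% of the tested genes. The labels call the libraries biological replicates without naming animals or cultures, so p-values measure the spread between these libraries.

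The members and lists were chosen with earlier results of these data known. Named were all members, from each list up to 2 called genes with the largest increase and up to 2 with the largest decrease, Nrp1, Foxp3, Cd4 and Pvt1, and the 3 genes most like Myc and the called members with the largest increase and decrease; others are marked as chosen after their values were seen, beside uncalled list members, overlapping genes and markers. GENCODE M21 (GRCm38) gave positions and exon overlaps, and RefSeq the promoter windows. As alternatives, the pseudocount was set to 0.1 or 0.5, the filter was dropped or raised to 5 FPKM, and the fit was run with median-of-ratios size factors, quantile normalization, a replicate block, eBayes without trend, libraries rescaled to 1 sum after leaving out short RNA genes (781 symbols, 267 tested), and each library left out. Leaving out short RNA genes with FPKM as deposited was added after the data were examined.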

Additional observations from a re-analysis of the deposited data

Results flagged for a closer look

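Among the 20 groups of 4 libraries (10 members in 2 groups), 2 held a library far from the other 3, where about 1 would be expected by chance alone. In Nrp-1+ iTreg, replicate 1 held 0.183 FPKM of Mycn and the other 3 libraries 0.418 to 0.446 FPKM, for a gene that rests on few fragments. In the same group, replicate 4 held 13.7 FPKM of Mnt and the other 3 libraries 12.8 to 12.9 FPKM, and neither gene was called with or without any library.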

How the results depend on the processing

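Mxd3 was called higher in all 18 alternatives, with differences from 0.78 to 0.88, and in 17 of the 18 the number of members called lower was within 1.5 times that of 4. Rescaling without short RNA genes was the exception: 1 member was called higher and 0 lower, 37 of the 98 partner and target genes were called higher and 12 lower (30 and 25 as deposited), and the uncalled differences of Mxd1 (0.012) and Mnt (0.016) came out above 0, where the median of all genes rose by 0.06 and both stayed at -0.03 against it. With FPKM as deposited and the same short RNA genes left out (an alternative chosen after seeing the data), 4 members were called lower, so the rescaling and not the absence of these genes carries the change; which scaling is closer to the cells was not tested. With each library left out in turn, 1 member was called higher and 4 to 5 lower, and 25 to 30 partner and target genes were called higher and 21 to 25 lower. Same-numbered libraries did not deviate together (correlations of deviations -0.54, -0.02, 0.01 and -0.50 for replicates 1 to 4, and -0.04, -0.06, -0.08 and -0.11 without short RNA genes). The best match of a library had its own number in 0 of 8 cases, but these best matches reached only r = 0.05 to 0.19. Whether same-numbered libraries shared a culture cannot be told from these correlations. With the replicate block 1 member was called higher and 4 lower, and 27 and 20 partner and target genes. In that fit 1 gene was called lower in the MLX branch (Txnip) and 1 among the other E-box factors (Usf1). The low level of Mycn limits what can be said of it.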
